A study of Mus musculus with 8 samples.

Results

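The 7 genes described here encode the subunits that surround the catalytic core of the m6A methyltransferase, together with the separate methyltransferase gene Mettl16. They are Wtap, Virma, Zc3h13, Rbm15, Rbm15b, Cbll1 and Mettl16, and every peak carrying one of these symbols in the deposited peak lists was taken. All 7 had a peak, out of 6487 genes with a peak in either list. They held 9 of the 6709 peaks called in Mettl3 conditional knockout (cKO) cells and 20 of the 8397 peaks called in control cells.

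N6-methyladenosine (m6A) is a methyl mark on adenosines within RNA. In mRNA it is laid down mainly by a complex in which METTL3 is the catalytic subunit and METTL14 helps to bind the substrate. WTAP anchors this pair in nuclear speckles, VIRMA is a large scaffold, ZC3H13 tethers the complex in the nucleus, RBM15 and RBM15B bind RNA and bring the complex to its sites, and CBLL1 (HAKAI) is a RING-domain subunit. METTL16 acts apart from this complex, on U6 small nuclear RNA and on hairpins in the mRNA of the S-adenosylmethionine synthetase gene Mat2a.

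The samples were primary hepatic stellate cells of C57BL/6J mice, which are liver pericytes that store vitamin A, kept in culture for 7 days so that they activated spontaneously. Cells with a knockout of Mettl3 targeted to hepatic stellate cells were set against wild-type cells, which the sample titles call Control. For each genotype the labels give 2 libraries of RNA precipitated with an antibody against m6A and 2 libraries of input RNA, 8 in all. Which line drives the deletion, how old the mice were and whether animals were pooled is not stated in the labels used here.

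Each genotype was represented by 1 peak list made by the authors, with no value for a single replicate. No difference between the genotypes therefore has a replicate error or a p-value, and read depth is unknown. The deposited lists carry no RNA level, so a site that lost its mark cannot be told apart from a transcript that became too scarce for a peak. In such bulk RNA, fewer cells of a type and less RNA per cell cannot be told apart either. Of 11 markers of stellate cells and myofibroblasts, 10 had a peak in the cKO list and 8 in the control list. Over all RefSeq protein-coding genes, 17.8% had a cKO peak and 21.0% a control peak. None of 5 hepatocyte markers had a peak in either list, whereas 3 of 5 endothelial markers had a cKO peak and 4 had a control peak. Cdh5 had the highest folds of the endothelial markers, 136 in the cKO list (percentile 97.2 within that list) and 737 in the control list (99.3). By its best fold Pecam1 stood higher in the cKO list (percentile 86.8, against 64.6 in control) and Lyve1 lower (41.8, against 56.5). Kdr had a control peak only. The highest folds among the stellate markers were 56.1 (Col1a1, cKO, percentile 89.7) and 350 (Pdgfrb, control, percentile 97.6). Of 5 macrophage markers, Cd68 had a cKO peak and Csf1r a control peak, and of 4 cholangiocyte markers Krt19 had a cKO peak. The part of RNA of these other cell types in the results was not tested. No Mettl3 peak was called in cKO or control cells, and peak calls cannot check the deletion.

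Transcripts of the writer genes carried peaks in both genotypes, in smaller number in the cKO list. A peak was called for 5 of the 7 genes in cKO cells (Virma, Zc3h13, Rbm15b, Cbll1 and Mettl16) and for all 7 in control cells. Rbm15 and Wtap had none in the cKO list. For comparison, 17.8% of 21900 RefSeq protein-coding genes had a cKO peak and 21.0% had a control peak under the same symbol. That total includes genes these cells may not transcribe. The 7 members were chosen with earlier results of these data known, and the core genes Mettl3 and Mettl14, without a peak, are not among them. The RefSeq shares therefore cannot test whether writer genes carry peaks more often than other genes. A cKO peak was thus present for 71.4% (5 of 7) of the writer genes and for 56.1% of all genes found in the control list. The share of the writer genes had an exact (Clopper-Pearson) 95% interval of 29.0 to 96.3%. Intervals cover counting error only.

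The number of peaks was lower in the cKO list for 5 writer genes, equal for Cbll1 and Mettl16, and higher for none. Zc3h13 had 4 peaks in the cKO list and 6 in the control list, Rbm15b 2 and 6, Virma 1 and 2, Rbm15 0 and 3, and Wtap 0 and 1. Over all genes with a control peak, 60.7% had fewer peaks in the cKO list, 26.4% had as many and 12.9% had more. Over all genes with a peak in either list the shares were 46.7%, 20.3% and 33.1%. Fewer peaks was thus the commonest direction by both counts. Only 1.89% of the genes with a control peak (94 genes) had 6 or more, a cut-off taken from Zc3h13 and Rbm15b themselves. Overlapping peaks were counted separately in all genes. The 6 control peaks of Rbm15b include 2 overlapping pairs, and its 2 cKO peaks overlap each other, so it had fewer places than peaks. Of those 94 genes 87.2% were found in the cKO list, and their median number of cKO peaks was 3 (quartiles 2 and 5), which lies between the 2 of Rbm15b and the 4 of Zc3h13. In the cKO list, 4.51% of genes had 4 or more peaks.

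**Figure D1:**
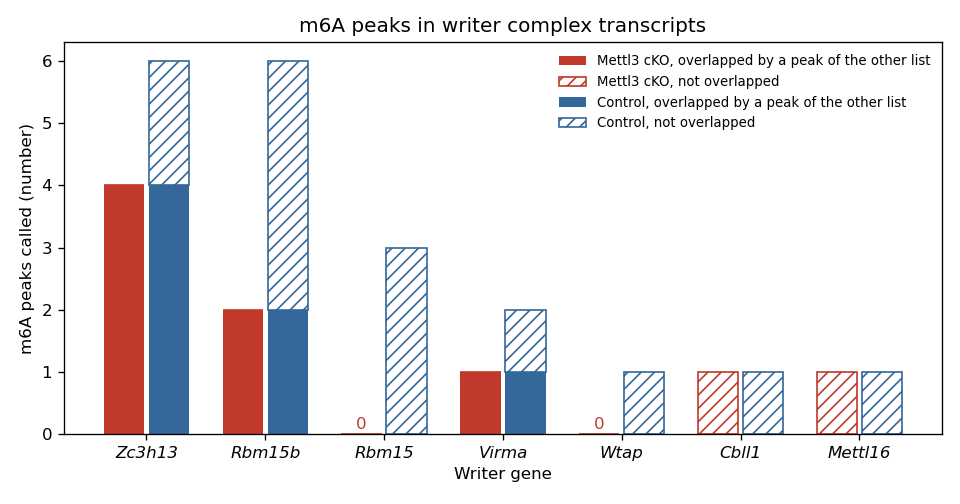
Number of m6A peaks called in each writer gene, in the Mettl3 cKO list (red, left) and the control list (blue, right). Filled parts are peaks overlapped by at least 1 base of a peak of the other list, and hatched parts are not. Only Zc3h13, Rbm15b and Virma have filled parts, and no gene has more peaks in the cKO list.

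By a 1-base overlap, most cKO peaks in these genes met a control peak, while most control peaks had no cKO counterpart. A peak counted as overlapped if at least 1 exonic base lay under a peak of the other list on the same strand. Of the 9 cKO peaks, 7 were overlapped by a control peak (77.8%, 95% interval 39.99 to 97.2), against 41.8% of all cKO peaks. Of the 20 control peaks, 7 were overlapped by a cKO peak (35.0%, 15.4 to 59.2), against 33.7% of all control peaks. Where 50% of both peaks had to be shared, 3 of 9 cKO peaks and 3 of 20 control peaks had a counterpart, against 27.5% and 22.0% of the whole lists. The 1-base intervals each hold the value of the whole list, and peaks of 1 gene are not independent of each other. Counted in bases, writer peaks covered 3446 exonic nt in the cKO list and 5715 nt in the control list. The 1799 nt in common were 52.2% of the cKO bases and 31.5% of the control bases, against 38.1% and 27.2% over all genes.

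**Figure D2:**
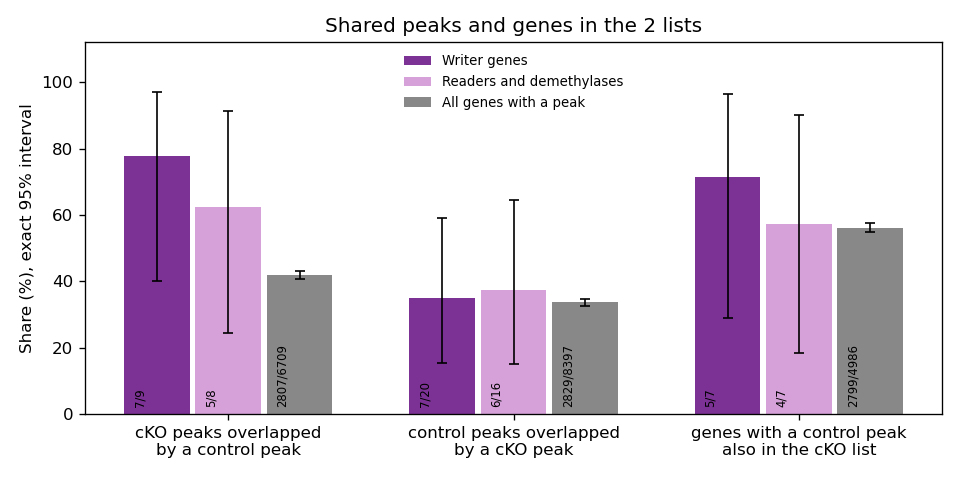
Share of cKO peaks overlapped by a control peak, of control peaks overlapped by a cKO peak, and of genes with a control peak found in the cKO list as well. Bars show writer genes, m6A readers and demethylases, and all genes with a peak, with counts at the foot and exact 95% intervals as error bars. The intervals of the writer genes span 39.99 to 97.2%, 15.4 to 59.2% and 29.0 to 96.3%, and each holds the bar of all genes.

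The peaks lay almost wholly in coding sequence. By the authors' annotation, 8 of the 9 cKO peaks and 17 of the 20 control peaks were coding, against 53.5% and 53.0% of the whole lists. The 3 control peaks that remain, all in Rbm15, were annotated as exon with no more specific part. A peak in a 3′ UTR, the part usually dense in m6A near the stop codon, was called once in the cKO list (Mettl16) and never in the control list. The 3′ UTR class made up 23.9% of all cKO peaks and 31.7% of all control peaks. No writer gene had a 5′ UTR peak. Peaks of more than 1 exon block numbered 5 of 9 in the cKO list and 8 of 20 in the control list, against 48.5% and 28.8% of the lists.

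Fold enrichments are the authors' values, read here as precipitated over input RNA. They were ranked within each list, because the lists need not share a scale. A percentile is the share of the same list's peaks with a lower fold. Writer peaks in the cKO list had a median fold of 16.4 (range 2.56 to 238), where the whole list had a median of 13.2. In the control list they had a median of 29.2 (7.25 to 796), where the whole list had 19.3. Of the cKO peaks 5 of 9, and of the control peaks 12 of 20, stood above the median of their list. A fold of 100 or more was reached by 1 of the 9 cKO writer peaks (4.55% of the list), in Zc3h13. In the control list it was reached by 5 of the 20 (11.8% of the list), in Rbm15, Rbm15b, Zc3h13 and Virma. Of those 5 control peaks, 4 had a cKO counterpart, against 54.0% of all control peaks that strong. Both strong Rbm15b peaks describe 1 place.

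Ordered by the best peak of each gene, the cKO list ran from Zc3h13 (percentile 99.1) through Virma (90.7), Cbll1 (74.9) and Rbm15b (61.5) to Mettl16 (44.6). The control order was Rbm15 (99.5), Rbm15b (98.7), Zc3h13 (97.3), Virma (93.4), Wtap (56.5), Cbll1 (38.1) and Mettl16 (14.8). Without replicates, neighbours in these orders cannot be said to differ. Of the 5 genes in both lists, Rbm15b and Virma stood lower in the cKO list and Zc3h13, Cbll1 and Mettl16 stood higher. Ranked by the deposited p-value, 2 of these directions turned: Virma stood higher in the cKO list (99.3, against 92.9 in control) and Zc3h13 lower (95.7, against 98.7). By fold, over all genes in both lists, 50.9% stood lower in the cKO list.

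**Figure D3:**
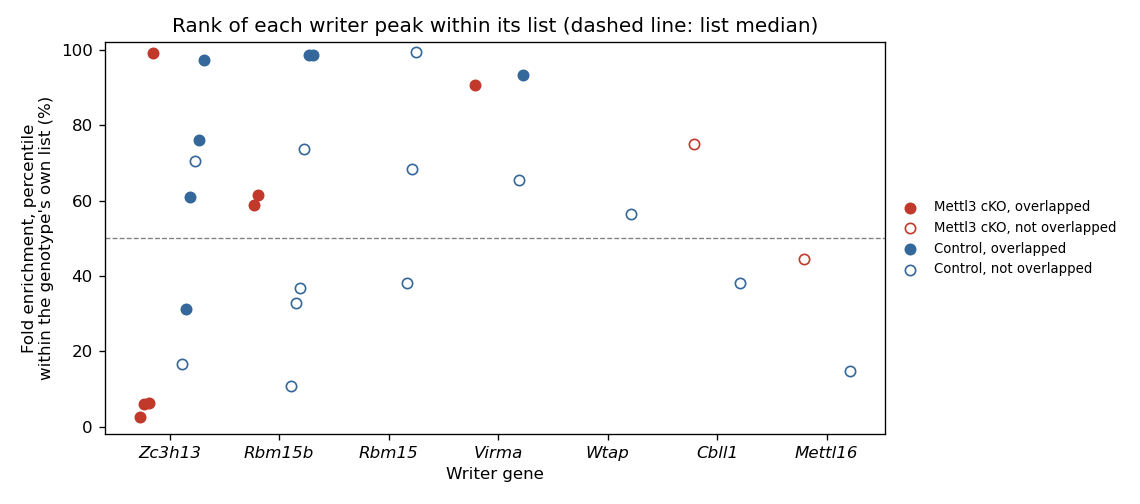
Percentile of every writer peak by fold enrichment within the list of its own genotype, Mettl3 cKO (red, left) and control (blue, right) for each gene. Filled points are peaks overlapped by a peak of the other list, open points are not, and the dashed line is the list median. The filled cKO points of Zc3h13 lie at the extremes, at 99.1 and from 2.64 to 6.26, and those of Rbm15b at 58.9 and 61.5 stand against control points of 98.6 and 98.7.

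Among the scaffold and tethering subunits, Zc3h13 (ENSMUSG00000022000) had the most overlapped peaks. The gene lies on the plus strand of chromosome 14, from 75284306 to 75344433 of the mm10 build, and all 10 of its peaks were coding. All 4 cKO peaks and 4 of the 6 control peaks had a counterpart. The strongest peak was not at the same place in the 2 genotypes. In cKO cells it had a fold of 238 and covered 1437 nt in 4 exon blocks between 75324422 and 75330617, at rank 58 of 6709. This was the widest writer peak of either list and the only one in the cKO list of 500 nt or more, a length reached by 6.86% of cKO peaks. In the control list 4 writer peaks reached it, against 10.9% of the list. Control cells had weaker peaks inside this stretch, of fold 27.0 (percentile 61.0) over 121 nt and of fold 49.1 (percentile 76.1) over 330 nt. The 601-nt block in the middle of the cKO peak, from 75327544 to 75328144, held no control peak, and neither did a block of 104 nt.

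Further towards the 3′ end of Zc3h13, the order was turned round. There the cKO list had 2 peaks, of fold 2.56 (241 nt, percentile 2.64) and 3.62 (151 nt, percentile 6.02). The control list had its strongest peak of the gene at this place, of fold 322, covering 689 nt in 3 blocks from 75331185 to 75336022, at rank 229 of 8397. Both cKO peaks lay wholly inside it. A site near the 5′ end was also called in both lists, with 181 nt in common. Its fold was 3.71 in cKO cells (percentile 6.26) and 11.9 in control cells (percentile 31.3). Ranked by the deposited p-value, the direction at this site turned, with the cKO peak at percentile 67.6 and the control peak at 44.7. The cKO peaks of fold 2.56 and 3.62 then stood at 41.0 and 46.6, and the control peak of fold 322 at 98.7. Folds below 5 occurred in 9.81% of all cKO peaks and 4.49% of all control peaks. The control list alone had peaks from 75321877 to 75323435 (fold 38.2) and from 75339378 to 75343648 (fold 8.45).

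Virma (ENSMUSG00000040720) encodes the scaffold that links the core to the other subunits. It lies on the plus strand of chromosome 4, from 11485958 to 11551143. Its single cKO peak had a fold of 60.1 and 3 coding blocks totalling 421 nt, from 11507045 to 11513143. The control peak at this place had a fold of 163 and covered 600 nt in 2 blocks, from 11507935 to 11513382. The 2 peaks shared 361 nt, which is 85.7% of the cKO peak and 60.2% of the control peak, and the cKO peak began further 5′. By fold they stood close together, at percentile 90.7 in the cKO list and 93.4 in the control list. The deposited p-value of the cKO peak was 0, among the 44 smallest of the 6709 in that list. A second control peak, of fold 31.4 over 361 nt from 11513562 to 11513922, had no counterpart.

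Wtap (ENSMUSG00000060475), the adaptor that holds the METTL3 and METTL14 pair, had no cKO peak. The control peak joined 2 coding blocks of 165 and 45 nt on the minus strand of chromosome 17, between 12975310 and 12980866, within a gene that spans 12966799 to 12992543. Its fold of 23.4 stood at percentile 56.5. Among all genes with exactly 1 control peak, 47.3% were found in the cKO list.

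The RNA-binding paralogues Rbm15 and Rbm15b had the control peaks of highest fold among the writer genes, and neither had a cKO peak with a fold above 17.7. By p-value the Zc3h13 control peak (rank 108) came before that of Rbm15 (rank 131). Rbm15 (ENSMUSG00000048109) lies on the minus strand of chromosome 3, from 107305511 to 107334460, and had no cKO peak. Its 3 control peaks followed each other from 2164 to 3600 nt downstream of the outermost 5′ end of the RefSeq gene. In 5′ to 3′ order their folds were 14.1, 796 and 35.4. The peak of fold 796 ran over 659 nt of a single block, from 107331189 to 107331847, and ranked 45 of 8397. Among all genes with exactly 3 control peaks, 78.3% had a cKO peak, and Rbm15 belonged to the remainder.

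Rbm15b (ENSMUSG00000074102) lies on the minus strand of chromosome 9, from 106880928 to 106887075, and all its peaks were coding. Its 2 cKO peaks overlapped each other, with folds of 17.7 (268 nt in 2 blocks) and 16.4 (299 nt in 1 block), between 106884890 and 106885353. The control list had 2 peaks that likewise overlapped each other here, of fold 501 (415 nt in 2 blocks) and 513 (628 nt in 1 block), between 106884770 and 106885397. Each pair therefore counts 1 place under 2 exon structures. The longer control peak contained both cKO peaks whole. Within their lists the cKO peaks stood at percentiles 61.5 and 58.9 and the control peaks at 98.6 and 98.7. The other 4 control peaks had no counterpart, with folds of 7.25, 12.5 and 13.7 on the 5′ side, the last 2 overlapping each other, and 44.3 on the 3′ side. Counting overlapping peaks of a list once, the 7 genes had 8 cKO and 18 control sites.

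**Figure D4:**
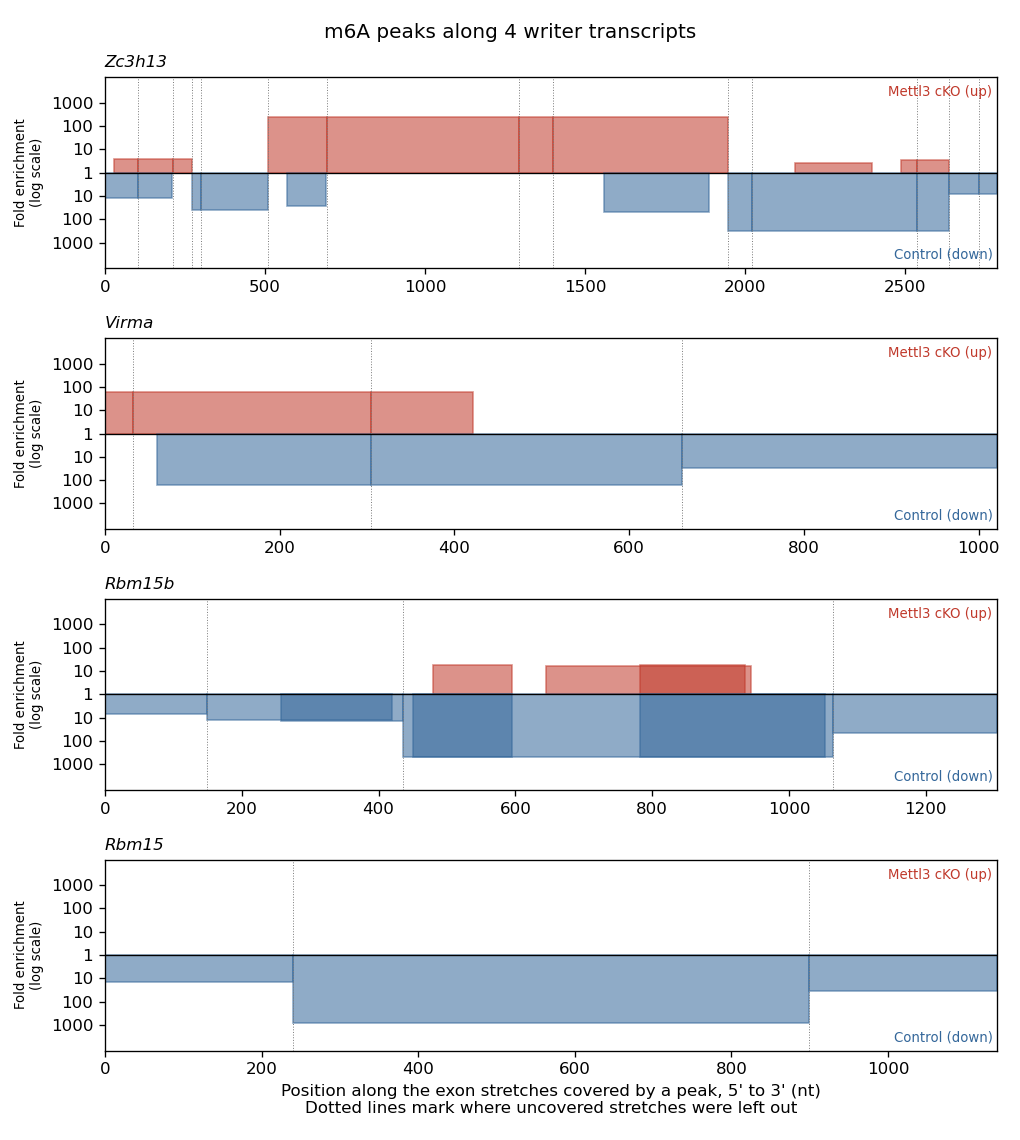
Peaks along 4 writer transcripts from 5′ to 3′, with Mettl3 cKO peaks drawn upward (red) and control peaks downward (blue). The x axis joins the exon stretches covered by a peak, in nt, with uncovered stretches left out at the dotted lines, and the height is the fold enrichment on a log scale within each list. The highest Zc3h13 peaks, of fold 238 in cKO and 322 in control, lie side by side, the Rbm15b peaks of fold 17.7 and 16.4 lie inside those of 501 and 513, and Rbm15 has control peaks only.

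Cbll1 and Mettl16 had 1 peak in each list, at separate places. Over all genes with peaks in both lists, 24.7% likewise had no overlapping pair. Cbll1 (ENSMUSG00000020659), on the minus strand of chromosome 12 from 31484829 to 31500676, had a cKO peak of fold 26.8 over 420 coding nt, from 31487878 to 31488297. The control peak, of fold 14.1 over 210 coding nt, lay 268 nt further 3′, from 31487400 to 31487609. The cKO peak stood at percentile 74.9 and the control peak at 38.1. The control list also named a peak of fold 14.1 for Gm29542 on the opposite strand, which shared 174 nt with the Cbll1 control peak. Whether strand was used in calling peaks is not given in the sources used here, so reads of Cbll1 and Gm29542 cannot be told apart there.

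Mettl16 (ENSMUSG00000010554), on the plus strand of chromosome 11 from 74770815 to 74826855, had the weakest best peak in both lists. Its cKO peak lay in the 3′ UTR, from 74817886 to 74818006 (121 nt), at a fold of 12.1 and a deposited p-value of 0.00056. The control peak joined coding blocks of 82 and 68 nt from 74816962 to 74817226, at a fold of 8.05 and a deposited p-value of 0.011. The cKO peak lay 659 nt downstream of the control peak.

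Other genes of the m6A pathway were set beside the writer genes. The core genes Mettl3 and Mettl14 had no peak in either list. Of 5 genes for other m6A methyltransferases and their cofactors, none had a cKO peak, and Trmt112 (fold 14.9) and Mettl4 (fold 9.26) had a 5′ UTR peak in the control list. Of 13 genes of readers and demethylases, 5 had a cKO peak and 7 a control peak, with 4 genes in both lists. Over all RefSeq protein-coding genes, 17.8% had a cKO peak and 21.0% a control peak. Of all genes with a control peak, 56.1% were in both lists. The cKO peaks of the readers and demethylases were overlapped in 5 of 8 cases and their control peaks in 6 of 16. The writer genes had 7 of 9 and 7 of 20, with intervals that overlap widely, and the whole lists 41.8% and 33.7%. The YTH reader genes Ythdf2 and Ythdf3 encode proteins that act in the cytoplasm. By their best peak they stood lower in the cKO list (percentiles 67.7 and 77.9) than in the control list (92.0 and 87.8). These best peaks lay at different places in the 2 lists. Inside the best control peak of Ythdf2, the cKO peak had a fold of 7.72 (percentile 21.4). The best control peak of Ythdf3 had no counterpart, and the cKO peak of that gene met a control peak of fold 57.2 (percentile 79.0). Ythdf1 had 0 cKO peaks and 4 control peaks, with a best fold of 101. The nuclear reader gene Ythdc1 had a best peak at percentile 98.8 in the cKO list (fold 206) and 92.7 in the control list (fold 153). These too lay at different places. The best cKO peak met a control peak of fold 75.3 (percentile 83.7), and the best control peak met a cKO peak of fold 69.4 (percentile 92.3). Hnrnpc, which encodes a nuclear RNA-binding protein, had 2 cKO peaks and 1 control peak, with best folds of 24.6 (percentile 72.5) and 40.7 (72.0). The best cKO peak lay in the 3′ UTR without a counterpart. The coding control peak met the other cKO peak, of fold 6.83 (percentile 17.1). Ranked by the deposited p-value, the direction at this place turned, with that cKO peak at percentile 95.1 and the control peak at 71.6. Rbmx had a control peak alone, of fold 9.66. Of the demethylase genes, Fto was found in cKO cells only (fold 4.51) and Alkbh5 in control cells only (fold 31.8). No difference between these groups was tested.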

How the data were processed

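RNA of 2 cKO and 2 control samples was precipitated with an m6A antibody and read beside input RNA. HISAT2, HOMER and mm10 are named, without roles, in the submitters' processing notes. The sources used here do not state the peak caller or how replicates entered the calls. Per the file headers, each deposited peak carries exon blocks, a strand, a class, a fold enrichment (a ratio) and a p-value, which stands in the column named score. The deposited log10 p and log10 false discovery rate were treated as a score; cells with a spreadsheet error, all at a p of 0, were ranked smallest.

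Peak starts count from 0 and were raised by 1: 50 starts lay 1 below a RefSeq gene start and 3 on it. Gene limits come from the RefSeq table of GRCm38, the assembly of mm10. Overlaps were computed with Python 3.11.15, pandas 2.3.3 and numpy 2.4.6, intervals with scipy 1.17.1 and figures with matplotlib 3.10.9. The code of the overlap step was checked on control peaks set against their own list, on copies of them moved away, and on made-up blocks. Depth is unknown, so precision rests on the authors' calls.

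All 7 genes are named with every peak; other pathway genes come from lists and are named where they had a peak. Members and lists were chosen with earlier results of these data known. Alternatives changed the joining of genes, the overlap, the fold or false discovery rate required, and the ranking value. Sequences under the peaks were not analysed here.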

Additional observations from a re-analysis of the deposited data

How the results depend on the processing

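The number of writer genes with a peak stayed at 5 in the cKO list and 7 in the control list when older symbols and Ensembl identifiers were joined or a fold of at least 5 was required. With a false discovery rate of at most 0.001 it was 4 and 6, since both Mettl16 peaks were lost. Overlapped peaks changed most with the overlap rule: where 50% of both peaks had to be shared, 3 of 9 cKO peaks and 3 of 20 control peaks had a counterpart, in place of 7 and 7 (27.5% and 22.0% of all peaks, in place of 41.8% and 33.7%). With a fold of at least 5, 4 of 6 cKO peaks and 5 of 20 control peaks did, since 3 cKO peaks of Zc3h13 fell below it. Outer spans in place of exon blocks gave 7 and 7, the stricter false discovery rate 7 of 8 and 7 of 17, and merging overlapping peaks, an alternative chosen after seeing the data, 6 of 8 and 6 of 18. Ranked by p-value in place of fold, the best cKO peaks stood at percentile 99.3 for Virma, 95.7 for Zc3h13, 73.4 for Rbm15b, 52.5 for Cbll1 and 22.6 for Mettl16. The best control peaks then stood at 98.7 for Zc3h13, 98.4 for Rbm15, 93.6 for Rbm15b, 92.9 for Virma, 45.2 for Wtap, 27.6 for Cbll1 and 6.63 for Mettl16. Virma then led the writer genes in the cKO list and Zc3h13 in the control list, and between the lists the directions of both turned; the cause was not tested. No paired analysis was possible because the lists hold no value per replicate, and for the same reason no replicate could be left out.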

Other observations

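A pair of genes tied to the writers by known function had peaks in both genotypes. Mat2a encodes the enzyme that makes the methyl donor S-adenosylmethionine, and METTL16 methylates hairpins in its 3′ UTR. Its peaks all lay in that 3′ UTR on the minus strand of chromosome 6. All were overlapped by a peak of the other list, against 41.8% of all cKO peaks and 33.7% of all control peaks. The cKO list had 2 peaks, of fold 43.0 over 509 nt (percentile 85.3) and 20.2 over 390 nt (percentile 66.4). The control list had 3, of fold 8.45, 25.4 and 8.05 (percentiles 16.7, 59.3 and 14.8). The peaks of fold 8.45 and 8.05 had deposited p-values of 0.0087 and 0.011. The control peaks of fold 8.45 and 25.4 lay inside the wide cKO peak, while the other pair, at 72434174, met by an end base only. These values have no replicate error.

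Spen encodes a large relative of RBM15 and RBM15B. It had 8 cKO peaks, of which 4 were overlapped, and 9 control peaks, of which 4 were overlapped, against 41.8% and 33.7% of the whole lists. Its best peak stood at percentile 89.0 in the cKO list (fold 53.7) and 88.8 in the control list (fold 105). These were different places. The best cKO peak had no counterpart, and the cKO peak inside the best control peak had a fold of 10.7 (percentile 38.4).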
